A study of Mus musculus with 23 samples.

Results

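The 10 genes described here are core parts of the Notch pathway, taken by symbol from the 35322 genes listed for the lung: the receptors Notch1, Notch2, Notch3 and Notch4, the ligands Jag1, Jag2, Dll1 and Dll4, and the targets Hes1 and Hey1. All 10 passed the filter on low values and were among the 16795 genes tested. RNA-Seq was performed on lung from 23 Balb/c offspring aged 13 weeks, described in the methods of the study as female. Sham offspring (n = 7) were born to saline-treated dams. PM offspring (n = 7) were born to dams given intranasal PM2.5, fine particulate matter of ambient air, before mating and through gestation until weaning. Neither group was challenged with OVA. Sham-OVA (n = 5) and PM-OVA (n = 4) offspring had the same 2 kinds of dam and received ovalbumin (OVA), by injection with alum and then as an aerosol, which induces allergic airway disease. The control challenge is PBS in the labels and nebulised saline in the methods, and both groups without OVA challenge are called saline groups below. The methods do not make plain whether the saline groups were also injected with OVA and alum. Lungs were taken the day after the last challenge, following lung function testing, so all groups share that procedure. The labels do not say which offspring shared a dam, and p-values measure only the spread between these libraries.

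Notch signalling passes between touching cells. A ligand of the Jagged or Delta-like family on one cell binds a Notch receptor on its neighbour, the receptor is cut by ADAM proteases and then by gamma-secretase, and the freed intracellular part joins RBPJ in the nucleus to turn on genes of the Hes and Hey families, which encode transcriptional repressors. In lung the pathway is known for the choice between secretory and multiciliated fates in the airway, for arterial identity in endothelial cells through Dll4, Notch1 and Notch4, and for the upkeep of smooth muscle and pericytes through Notch3.

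The 14 saline libraries held 13089691 to 17393579 reads on genes, and the OVA libraries fewer, from 2298645 to 12185451 in Sham-OVA and from 4324326 to 12355561 in PM-OVA. Values are in RPM, reads scaled to the total of a library, and 1 read was worth 0.311 RPM in Sham-OVA replicate 3, the shallowest library, in which Dll1 rested on 12 reads. The library labelled Sham replicate 1 had 0.289 RPM of Xist and 54.0 RPM of the Y-linked Eif2s3y, unlike the other libraries, and it was kept in its group. Sham replicates 1 and 6 and PM replicate 1 had stood apart from the other saline libraries in earlier results of these data. Without these 3 the counts of genes lower after OVA challenge were 9 of 10 in Sham and 8 of 10 in PM offspring, as with all libraries below. Of all 16701 genes then tested, 7400 were lower in Sham and 7162 in PM offspring. The lung label was checked against markers of alveolar cells, whose 9 genes together took between 16201 and 46664 RPM in each library.

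The genes lie on 5 autosomes in the GRCm38 annotation (GENCODE), and their merged exons differ in length, which matters for the comparisons below. The receptors are the longest. Notch1 (chr2:26457903-26516663, minus strand) has 14232 exon bases, Notch2 (chr3:98013527-98150361, plus strand) 10782, Notch3 (chr17:32120820-32166852, minus strand) 8089 and Notch4 (chr17:34564268-34588503, plus strand) 8061. Of the ligands, Jag1 (chr2:137081456-137116644, minus strand) has 5827 bases and Jag2 (chr12:112907819-112929776, minus strand) 6965. The Delta-like ligands are shorter, with 4219 bases in Dll1 (chr17:15367354-15376872, minus strand) and 3852 in Dll4 (chr2:119325784-119335962, plus strand). The targets are the shortest, with 2037 bases in Hes1 (chr16:30064384-30067796, plus strand) and 3265 in Hey1 (chr3:8663359-8667256, minus strand). A value covers all exons of a gene. Exons of Notch1, Notch3, Dll1 and Dll4 overlap a gene on the other strand, and those of Notch2 a gene on the same strand. Of these neighbours Gm14207, beside Dll4, reached at most 7.27 RPM in a library and those of Notch1, Notch2 and Notch3 less, with no value for the neighbour of Dll1, and the use of strand in counting is not given in the sources used here.

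The promoters of the 10 genes, of which 8 fell in both OVA comparisons, were read for shared letters. Of all genes 47.5% were lower in Sham and 45.2% in PM offspring, and the share lower in both was not counted. RefSeq promoters (GRCm38.p6, 250 bases before to 50 after a start) matched 8 of the 10 genes with 9 promoters. Hes1 and Hey1 were the genes without an entry. On both strands, the core of the RBPJ motif, TGGGAA, occurred in 0 of the 9 promoters, compared with 25.6% of 32851 RefSeq promoters of the same length. The GC box GGGCGG occurred in 5 of 9, those of Notch1, Notch2, Notch3, Jag2 and Dll4, against 35.7% of all promoters, and the ETS core CGGAAG in 1, that of Notch2, against 16.9%. Matches of a motif may overlap each other. The number of CpG dinucleotides ran from 5 in Notch4 to 63 in Jag2, where the median of all promoters was 7. The 250 bases before the start are printed for 4 of the genes that fell in both OVA comparisons and whose window holds at most 27 bases of the annotated gene. Notch2, whose window also meets this and holds GC boxes and the ETS core, is not printed. The 4 were picked so that promoters with and without GC boxes can be compared. Capitals mark GC boxes on either strand.
Notch3 (chr17:32166891-32167140, minus strand): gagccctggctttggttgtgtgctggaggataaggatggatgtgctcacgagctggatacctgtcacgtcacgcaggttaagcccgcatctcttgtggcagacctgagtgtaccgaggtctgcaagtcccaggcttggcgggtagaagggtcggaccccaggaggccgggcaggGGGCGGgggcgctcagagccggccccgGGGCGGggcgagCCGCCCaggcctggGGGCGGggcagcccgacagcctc
Notch4 (chr17:34564045-34564294, plus strand): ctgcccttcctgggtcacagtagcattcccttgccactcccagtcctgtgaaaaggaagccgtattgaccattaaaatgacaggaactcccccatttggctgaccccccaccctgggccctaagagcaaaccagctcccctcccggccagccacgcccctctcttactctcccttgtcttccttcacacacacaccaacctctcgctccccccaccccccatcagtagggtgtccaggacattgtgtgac
Dll4 (chr2:119325534-119325783, plus strand): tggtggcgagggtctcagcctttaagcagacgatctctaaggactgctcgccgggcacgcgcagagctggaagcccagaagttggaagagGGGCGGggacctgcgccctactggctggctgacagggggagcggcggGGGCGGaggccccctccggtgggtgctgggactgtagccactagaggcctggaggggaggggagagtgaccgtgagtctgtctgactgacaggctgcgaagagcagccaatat
Dll1 (chr17:15376933-15377182, minus strand): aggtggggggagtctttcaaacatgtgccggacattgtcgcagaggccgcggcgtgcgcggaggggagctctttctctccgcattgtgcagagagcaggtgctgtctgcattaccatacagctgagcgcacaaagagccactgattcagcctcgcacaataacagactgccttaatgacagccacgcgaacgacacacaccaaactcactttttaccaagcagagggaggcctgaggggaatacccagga
Notch3 holds 4 GC boxes and Dll4 2, whereas the Notch4 and Dll1 windows hold none, and Notch4 has the fewest CpG dinucleotides of the 9. A match is only a match of letters, and the absence of the RBPJ core says nothing about RBPJ at these genes.

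Levels of different genes were compared per length, in RPM per kb of exon. In Sham lung the targets were highest, with Hey1 at 43.0 ± 10.4 (SD, n = 7) and Hes1 at 39.5 ± 4.38 RPM per kb. Hey1 lay above Hes1 in 5 of 7 libraries, so the order of these neighbours was not fixed. The endothelial receptor Notch4 (32.9 ± 3.53) and its partner ligand Dll4 (29.7 ± 7.96) followed, with Notch4 ahead in 5 of 7 libraries. Then came Notch1 (19.0 ± 2.64), Notch3 (17.5 ± 3.06) and Notch2 (15.5 ± 2.34), whose ranges overlapped. Jag1 (9.31 ± 1.51), Dll1 (9.22 ± 1.92) and Jag2 (8.59 ± 1.61) were the lowest and did not differ from each other beyond their spread. Dll4 was thus the most abundant ligand per length. PM lung had the same layers, with both targets first at 44.7 and 44.6 RPM per kb and the same 3 ligands last, none above a mean of 9.26. After OVA challenge Hes1 stood alone. It reached 51.0 ± 12.8 RPM per kb in Sham-OVA (n = 5) and 49.1 ± 11.0 in PM-OVA (n = 4), above Hey1 (23.3 ± 8.92 and 27.8 ± 7.02) in 5 of 5 and 4 of 4 when compared per kb. Dll1 was last in both OVA groups at 3.46 ± 1.63 and 3.23 ± 1.77 RPM per kb.

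**Figure D1:**
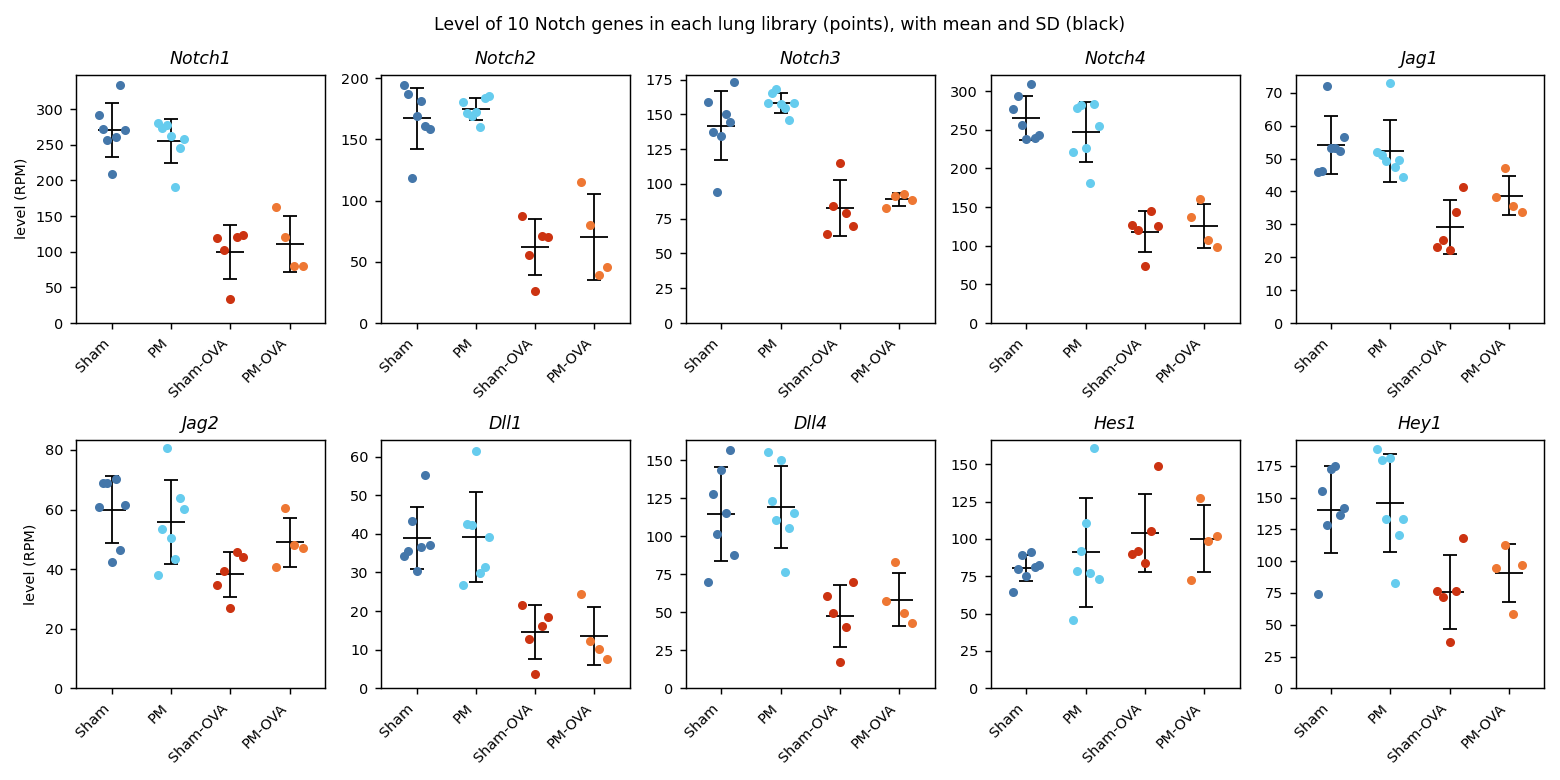
Level of each of the 10 genes in RPM (vertical axis, from 0) in every library of the 4 groups (points), with the group mean and SD in black. Notch1, Notch2, Notch4 and Dll1 had all OVA libraries below all saline libraries of offspring of the same kind of dam, and Hes1 had none of its groups apart.

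OVA challenge was compared with saline within the offspring of each kind of dam, with limma on log2(RPM + 0.5) and adjustment over all genes tested. In Sham offspring 9 of the 10 genes were lower at an adjusted p under 0.05 and 0 were higher, where 47.5% of all genes were lower and 20.6% higher. In PM offspring 8 of 10 were lower and 0 higher, against 45.2% and 20.1% of all genes. The exceptions were Hes1 in both comparisons and Jag2 in PM offspring. The median log2 fold change of the 10 genes was -1.06 in Sham and -0.91 in PM offspring, and that of all genes was -0.48 and -0.43. Relative to that median, 9 of the 10 genes were lower in Sham offspring, from -1.08 in Notch1 and Dll1 to -0.16 in Jag2, with Hes1 at 0.82. In PM offspring 7 were lower, Dll1 the most at -1.14, while Jag1 was at 0.00, Jag2 at 0.27 and Hes1 at 0.63. Every OVA library lay below every saline library for 6 of the 10 genes in Sham offspring, as it did for 35.0% of all genes, and for 5 of 10 in PM offspring, against 28.6%. None of the 10 lay wholly above, which 13.2% and 13.3% of all genes did. By the stricter rule of the study, which asks for an adjusted p below 0.000001 together with a log2 change of more than 1 either way, limma called 0 of the 10, and 4.51% of all genes in Sham and 0.286% in PM offspring. DESeq2, the tool of the study, called 2 of the 10 by that rule in Sham offspring, Notch1 (log2 fold change -1.14, adjusted p = 4.7e-09) and Notch2 (-1.11, adjusted p = 3.1e-10), where it called 28.9% of all genes. In PM offspring it called 1, Notch2 (-1.01, adjusted p = 3.0e-08), and 17.0% of all genes. The log2 part of that rule stands in a figure legend of the study, and its methods give only the adjusted p. Notch4, with -0.82 (adjusted p = 1.4e-13) by DESeq2 in Sham offspring, passed the adjusted p alone. The study lists Notch4 among the endothelial genes of its set changed by OVA in Sham offspring only.

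All 4 receptors fell in both comparisons. Notch1, the receptor with arterial, epithelial and lymphoid roles, had a lowest, median and highest value of 209, 271 and 334 RPM in Sham. The 5 Sham-OVA libraries had 119.5, 101.9, 34.2, 120.2 and 123 RPM. Every one of them was under the lowest Sham library, and replicate 3 was far below the other 4. Between the groups the log2 fold change was -1.56 (SE 0.27, adjusted p = 0.000145), and -1.08 relative to the median of all genes. In PM offspring Notch1 went from 190, 262 and 281 RPM (lowest, median, highest) to 163, 121, 80.3 and 80.4 RPM. The groups did not overlap, and the log2 fold change was -1.25 (SE 0.20, adjusted p = 0.000245).

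Notch2, which is widely expressed and acts in macrophage and B cell lineages as well as in epithelium, showed a difference of like size. In Sham it spanned 118 to 195 RPM (median 169), and in Sham-OVA it had 87.8, 55.5, 26.1, 71.2 and 70.5 RPM. The PM libraries were tightly grouped between 160 and 185 RPM (median 172), whereas the PM-OVA libraries spread over 115, 79.8, 38.9 and 45.9 RPM. No OVA library reached its saline range. This gave a log2 fold change of -1.51 (SE 0.24, adjusted p = 7.8e-05) in Sham and -1.45 (SE 0.24, adjusted p = 0.000318) in PM offspring.

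Notch3, the receptor of vascular smooth muscle and pericytes, had the smallest fall of the receptors. Its Sham libraries had 94.5 to 173 RPM (median 145) and its Sham-OVA libraries 64.2, 84.4, 115, 79.2 and 69.5 RPM. Sham-OVA replicate 3, the lowest library for the other receptors, was here the highest of its group and above the lowest Sham library. In PM the range was 146 to 168 RPM (median 158), and in PM-OVA the values were 82.6, 91.5, 92.9 and 88.6 RPM, a narrow band well under it. On the log2 scale the change was -0.79 (SE 0.17, adjusted p = 0.001) in Sham and -0.83 (SE 0.10, adjusted p = 5.8e-05) in PM offspring. The call in Sham offspring was lost when libraries were scaled by the median of ratios (log2 fold change -0.42, adjusted p = 0.141) and with DESeq2 (-0.32, adjusted p = 0.269) or edgeR (-0.26, adjusted p = 0.345) on the recovered reads.

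Notch4, a receptor found mainly in endothelial cells, had 239 to 310 RPM in Sham (median 256). In Sham-OVA it had 127, 119.9, 73.6, 144 and 126 RPM, all well below. PM libraries had 181 to 284 RPM (median 255), and the PM-OVA libraries had 137, 160.1, 107 and 97.9 RPM, again with no overlap. Its log2 fold change was -1.19 (SE 0.16, adjusted p = 1.6e-05) in Sham and -0.98 (SE 0.17, adjusted p = 0.000425) in PM offspring. The calls for Notch1, Notch2 and Notch4 in both comparisons held under the alternatives run, other than the stricter thresholds.

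**Figure D2:**
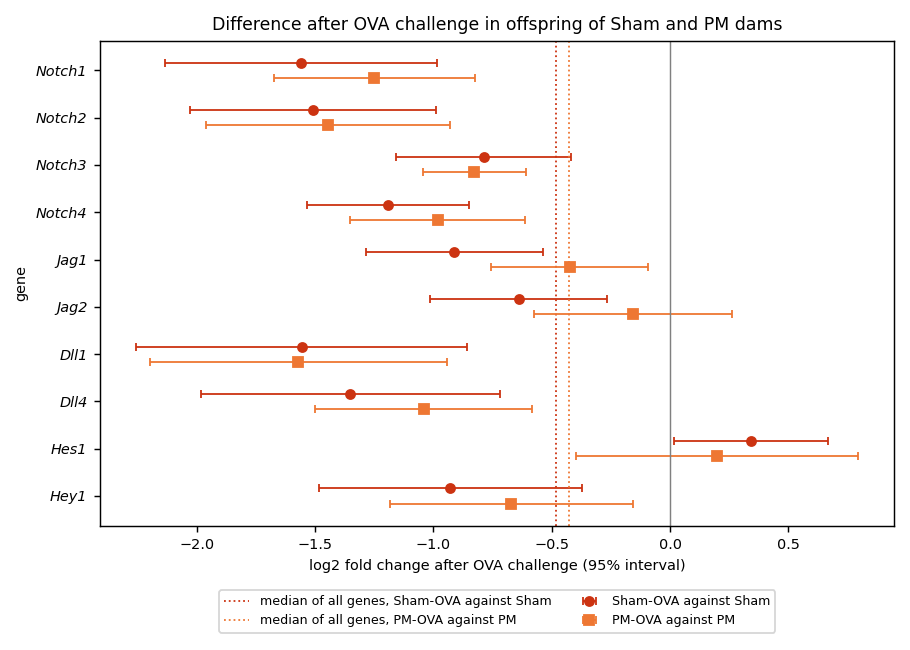
Log2 fold change of each gene after OVA challenge (horizontal axis) with its 95% interval, for Sham-OVA against Sham (circles) and PM-OVA against PM (squares). Dotted lines are the medians of all genes tested, at -0.48 and -0.43, and Hes1 is the one gene placed above 0 in both comparisons.

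Both Delta-like ligands fell in both comparisons. Dll1, a ligand of epithelial and lymphoid niches, had 30.4 to 55.1 RPM in Sham (median 36.5) and 21.6, 12.8, 3.73, 16.3 and 18.6 RPM in Sham-OVA. In PM it had 26.8 to 61.4 RPM (median 39.2) and in PM-OVA 24.5, 12.1, 10.2 and 7.63 RPM. Neither pair of groups overlapped. The test gave a log2 fold change of -1.56 (SE 0.33, adjusted p = 0.000727) in Sham and -1.57 (SE 0.29, adjusted p = 0.000603) in PM offspring. Dll4, the ligand of arterial and sprouting endothelial cells, had 70.1 to 156 RPM in Sham (median 115) and 60.6, 49.7, 17.4, 40.6 and 69.7 RPM in Sham-OVA, all below. The PM libraries had 76.6 to 155 RPM (median 115), and PM-OVA replicate 2, at 83.1 RPM, lay within that range while the others had 57.2, 49.4 and 43.2 RPM. The resulting log2 change was -1.35 (SE 0.30, adjusted p = 0.00101) in Sham and -1.04 (SE 0.21, adjusted p = 0.00109) in PM offspring.

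The Jagged ligands had smaller log2 fold changes than the Delta-like ligands, a difference that was not tested. Jag1, a ligand of smooth muscle, endothelium and airway basal cells, had 46.0 to 72.1 RPM in Sham (median 53.1) and 23.2, 25.3, 22.1, 33.8 and 41.3 RPM in Sham-OVA, without overlap. Between the groups the log2 fold change was -0.91 (SE 0.18, adjusted p = 0.000353). In PM offspring it went from 44.3 to 73.0 RPM (median 49.6) to 38.4, 47.2, 35.6 and 33.8 RPM, where replicate 2 lay inside the saline range. The log2 fold change there was -0.42 (SE 0.15, adjusted p = 0.0262), equal to the median of all genes to within 0.0035. That call was lost without PM-OVA replicate 3 (adjusted p = 0.0652) or replicate 4 (0.0730), and under median-of-ratios scaling (log2 fold change -0.06, adjusted p = 0.712).

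Jag2, a ligand of airway epithelium, had 42.4 to 70.2 RPM in Sham (median 61.6) and 34.8, 39.5, 27.0, 45.8 and 44.0 RPM in Sham-OVA. The 2 highest Sham-OVA libraries overlapped the lowest Sham library. This gave a log2 fold change of -0.64 (SE 0.17, adjusted p = 0.00475), a call that was lost under median-of-ratios scaling (-0.27, adjusted p = 0.134). In PM offspring the 7 saline libraries had 38.2 to 80.7 RPM (median 53.3) and the OVA libraries 40.8, 60.4, 47.9 and 47.2 RPM, all within the saline range. The log2 difference was -0.16 (95% interval -0.58 to 0.26, adjusted p = 0.489), and its sign turned under median-of-ratios scaling (0.20, adjusted p = 0.402).

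Of the targets, Hey1, a repressor prominent in endothelium, fell. It had 74.2 to 174 RPM in Sham (median 142) and 76.8, 71.7, 36.4, 76.8 and 118 RPM in Sham-OVA, overlapping only the lowest Sham library, replicate 1. On the log2 scale the change was -0.93 (SE 0.26, adjusted p = 0.0056). In PM it had 83.0 to 188 RPM (median 133), compared with 94.8, 112, 58.3 and 97.1 RPM in PM-OVA. Here 3 of the 4 OVA libraries lay within the saline range. Its log2 fold change was -0.67 (SE 0.24, adjusted p = 0.0246), and the call was lost without PM-OVA replicate 3 (log2 fold change -0.47, adjusted p = 0.101) and under median-of-ratios scaling (-0.31, adjusted p = 0.234).

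Hes1, a repressor active in epithelial, endothelial and immune cells alike, was not lower in either comparison. Its libraries had 64.4 to 91.1 RPM in Sham (median 81.1) and 89.8, 91.8, 83.9, 105 and 148 RPM in Sham-OVA, so that 3 of the 5 were above every Sham library. The log2 difference was 0.34 (95% interval 0.02 to 0.67, adjusted p = 0.0588), short of the threshold. It passed the threshold as a rise without Sham-OVA replicate 3 (0.41, adjusted p = 0.0124), under median-of-ratios scaling (0.71, adjusted p = 0.000553) and with DESeq2 (0.74, adjusted p = 4.0e-06), whereas after removal of the trend with length and GC content the log2 difference was -0.02 (adjusted p = 0.929). PM libraries varied widely, from 45.6 to 161 RPM (median 78.3), and contained the PM-OVA libraries at 72.6, 128, 98.5 and 101.7 RPM. The log2 difference was 0.20 (95% interval -0.40 to 0.80, adjusted p = 0.537).

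The ratio of Hes1 to Hey1 in RPM is free of the scaling of a library. It was chosen after the values were seen and is given without a test. In Sham it lay between 0.435 and 0.868 (median 0.581), and in Sham-OVA it was 1.17, 1.28, 2.31, 1.37 and 1.25. Each Sham-OVA library was above each Sham library. In PM it lay between 0.243 and 1.33 (median 0.611) and in PM-OVA it was 0.765, 1.14, 1.69 and 1.05, with overlap. In Sham offspring the ratio shows that the 2 targets differed unequally between these libraries, not which of them did. With the overlap in PM offspring the same is not shown there. Hes1 and Hey1 also differ in exon length, at 2037 and 3265 bases, and the ratio was not corrected for the trend with length described below.

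**Figure D3:**
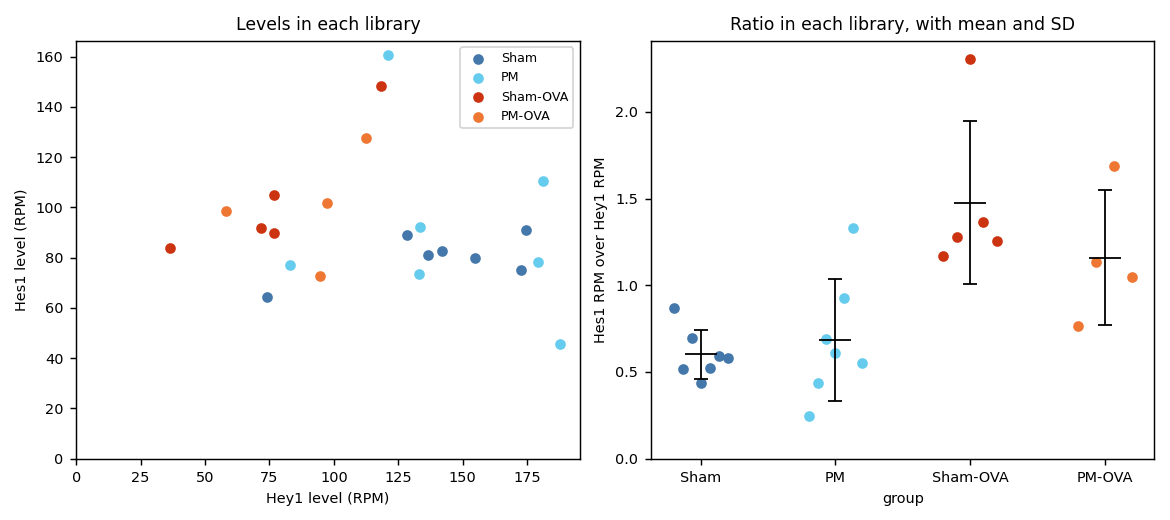
Left, Hes1 against Hey1 in RPM in each library, coloured by group. Right, the ratio of Hes1 to Hey1 in each library with the group mean and SD, where the 5 Sham-OVA libraries, from 1.17 to 2.31, all lie above the 7 Sham libraries, from 0.435 to 0.868.

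Fold changes in both comparisons moved with exon length across all genes, and the receptors belong to the longest class. Genes with up to 2000 exon bases had a median log2 fold change of 0.09 in Sham and 0.13 in PM offspring, and those over 8000 bases, all 4 receptors among them, had -1.05 and -0.99. Against that class, Notch1 stood at -0.51 on the log2 scale in Sham offspring, with 27.6% of the class lower still, and at -0.26 in PM offspring, with 38.8% lower still. Notch4 stood at -0.15 and 0.01, with 44.0% and 50.5% of the class lower. Notch3 was above its class median by 0.26 in Sham and 0.16 in PM offspring. Jag2 was above the median of genes of over 6000 and up to 8000 bases by 0.14 and 0.57. The shorter Delta-like ligands stood further from their classes. Relative to genes of over 2000 and up to 4000 bases, Dll4 stood at -1.08 in Sham and -0.83 in PM offspring, with 15.1% and 20.2% of the class lower. Dll1 stood at -1.01 and -1.05 relative to its class of over 4000 and up to 6000 bases. Hes1, of the same class as Dll4, was 0.61 and 0.41 above the class median. With the trend of length and GC content removed from each library, 9 of the 10 genes remained lower at an adjusted p under 0.05 in Sham and 7 in PM offspring, the gene lost being Jag1 (-0.19, adjusted p = 0.25). Of all 16536 genes so tested, 7642 were lower in Sham and 7310 in PM offspring. The part of length in the fall of the receptors was not tested otherwise.

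**Figure D4:**
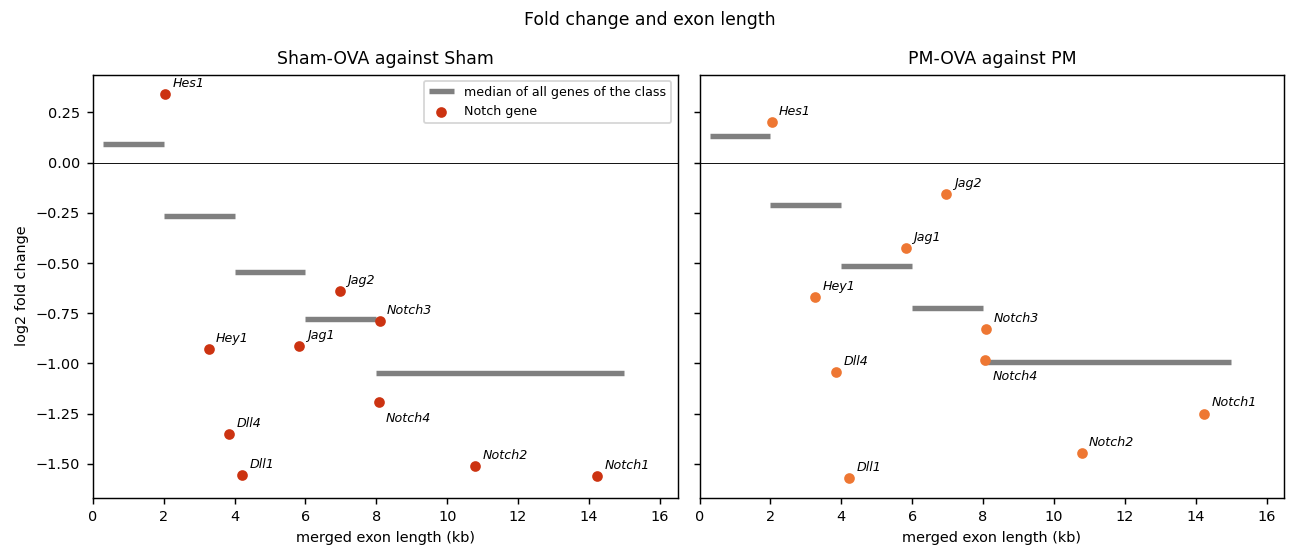
Log2 fold change after OVA challenge (vertical axis) against merged exon length in kb (horizontal axis) for the 10 genes (points), in Sham-OVA against Sham (left) and PM-OVA against PM (right). Grey bars are the medians of all genes of a length class, falling from 0.09 to -1.05 in Sham and from 0.13 to -0.99 in PM offspring.

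Maternal exposure was compared in 3 ways. The groups are shared with the comparisons above. In PM against Sham, limma called 0 of the 10 genes and 0% of all genes, with 0 of the 10 and 731 of all genes at an unadjusted p under 0.05, and edgeR and DESeq2 called 0 of the 10. The fitted log2 difference was furthest above 0 in Notch3, at 158 ± 7.33 RPM in PM and 142 ± 24.7 in Sham (log2 difference 0.18, 95% interval -0.04 to 0.39), and furthest below 0 in Jag2, at 55.7 ± 14.1 and 59.9 ± 11.2 RPM (-0.12, 95% interval -0.45 to 0.22). In PM-OVA against Sham-OVA again 0 of 10 genes and 0% of all genes were called by limma, with 0 of the 10 and 313 of all genes at an unadjusted p under 0.05, and 0 of the 10 by edgeR and DESeq2. On the log2 scale the difference was widest for Jag1, Dll4 and Jag2. Jag1 was at 38.7 ± 5.96 RPM in PM-OVA and 29.1 ± 8.22 in Sham-OVA (log2 difference 0.43, 95% interval -0.07 to 0.94), Dll4 at 58.2 ± 17.5 and 47.6 ± 20.1 RPM (0.38, 95% interval -0.48 to 1.25) and Jag2 at 49.1 ± 8.22 and 38.2 ± 7.58 RPM (0.37, 95% interval -0.08 to 0.82). Intervals for Dll1, from -1.19 to 1.12, and Notch2, from -0.78 to 1.06, were too wide to place these genes.

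The difference of the OVA effects between PM and Sham offspring was tested as an interaction in all 4 groups. With limma 0 of the 10 genes and 0% of all genes passed, 1 of the 10 and 854 of all genes had an unadjusted p under 0.05, and edgeR and DESeq2 called 0 of the 10. That gene was Jag1, whose OVA effect was smaller in PM offspring by 0.49 on the log2 scale (95% interval 0.01 to 0.97, unadjusted p = 0.0474, adjusted p = 0.973). Jag2 followed with 0.48 (95% interval -0.06 to 1.02, adjusted p = 1.00). The different calls for Jag2 in Sham and PM offspring are thus not shown to differ. With array weights, which lower the weight of outlying libraries, 4616 genes were called, among them Notch2 with the sign turned (-0.61, adjusted p = 0.0321). Without PM-OVA replicate 1 and Sham-OVA replicate 3, 1963 genes and 0 of the 10 were called. Of the 60 further pathway genes described below, array weights called 1 as higher and 18 as lower, beside 651 and 3965 of all 16795 genes. The fit without those libraries called 1 and 7, beside 413 and 1550 of all 16729 genes. The 60 include the 6 genes that are left out of the counts below.

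Of a list of 63 further genes of the pathway, 60 were tested. Of these, 6 (Dll3, Hes5, Dner, Kat2b, Hdac1 and Psenen) reached the filter of 0.5 RPM in 4 libraries only through the OVA or only through the saline libraries, or only by both together, and are left out of the counts. Of the other 54, in Sham offspring 11 were higher, 25 lower and 18 did not pass, shares of 20.4% and 46.3% where all genes had 20.6% and 47.5%. In PM offspring 12 were higher, 27 lower and 15 did not pass, shares of 22.2% and 50% beside 20.1% and 45.2%. These shares lie near the background. The median log2 fold change was -0.32 and -0.40. Under median-of-ratios scaling 18 were higher and 21 lower in Sham, and 16 and 21 in PM offspring. Of all 16795 genes, that scaling gave 4903 higher and 6407 lower in Sham, and 4862 and 6003 in PM offspring. From each role the gene with the largest difference is named, among those called in both comparisons in the same direction. Mib1, the ubiquitin ligase that drives endocytosis of bound ligand, went from 174.9 ± 26.6 to 72.2 ± 29.5 RPM in Sham (log2 fold change -1.43, adjusted p = 0.000791) while the PM means were 188 ± 20.7 and 76.5 ± 35.1 RPM (-1.40, adjusted p = 0.000381). Lfng, the Fringe glycosyltransferase that shifts receptors towards Delta-like ligands, rose from 86.0 ± 23.2 to 161 ± 17.95 RPM (0.94, adjusted p = 0.000504) and from 84.2 ± 17.7 to 149 ± 52.5 RPM (0.79, adjusted p = 0.00649), but with the trend of length and GC content removed it did not pass (0.40 and 0.19). Dll3, a Delta-like protein that is not an activating ligand, was at 0 to 0.0581 RPM in Sham, at most 1 read, and at 0.973, 1.73, 1.86, 0.797 and 0.511 RPM in Sham-OVA. In PM it was at 0 to 0.0688 RPM and in PM-OVA at 0.672, 0.541, 0 and 0.182 RPM. These are given as values, since Dll3 is among the 6 genes.

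Of 9 genes of receptor cleavage, 3 were lower and 2 higher in Sham offspring, and 4 and 2 in PM offspring. Aph1a, a subunit of gamma-secretase, went from 15.6 ± 2.36 to 3.61 ± 1.62 RPM in Sham (-2.10, adjusted p = 2.1e-05) while the PM means were 16.1 ± 1.44 and 5.74 ± 6.02 RPM (-2.03, adjusted p = 0.00398). PM-OVA replicate 1, at 13.8 RPM, stayed within the saline range and the other PM-OVA libraries had 0.797 to 6.96 RPM. The 2 higher genes, named after their values were seen, were Psen2 and Ncstn, also subunits of gamma-secretase. Psen2 had log2 fold changes of 1.17 (adjusted p = 1.1e-05) in Sham and 1.05 (adjusted p = 0.000235) in PM offspring. For Ncstn they were 0.52 (adjusted p = 0.000677) and 0.64 (adjusted p = 0.000737). Aph1b was lower in both comparisons, and Aph1c in Sham offspring. Among 9 genes of receptor turnover, 4 were lower and 3 higher in Sham, and 5 and 4 in PM offspring. Itch, a ubiquitin ligase that targets Notch, had the largest difference, from 69.9 ± 8.51 to 6.85 ± 4.85 RPM in Sham (-3.85, adjusted p = 5.3e-05) while the PM means were 70.4 ± 5.58 and 13.7 ± 17.4 RPM (-3.23, adjusted p = 0.000583), where PM-OVA replicate 1 alone had 38.9 RPM.

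Of 8 genes of the nuclear complex and co-activators, 4 were lower in both comparisons, and 1 and 0 higher. Rbpj itself, the DNA-binding partner of the pathway, gave log2 differences of 0.03 (adjusted p = 0.923) and -0.19 (adjusted p = 0.594). Kat2b, a histone acetyltransferase of the complex and also among the 6 genes left out of the counts, was at 7.21 ± 2.07 RPM in Sham and 0.234 ± 0.169 in Sham-OVA, and at 7.46 ± 1.45 RPM in PM and 0.801 ± 0.956 in PM-OVA. Of 10 co-repressors, 7 were lower and 2 higher in both comparisons. Ncor1, the nuclear receptor co-repressor, went from 71.1 ± 22.4 to 4.47 ± 2.06 RPM (-3.96, adjusted p = 3.8e-07) and from 83.3 ± 12.7 to 10.1 ± 12.02 (-3.61, adjusted p = 0.000107).

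Among 8 other targets 4 were lower and 1 higher in both comparisons. Efnb2, an arterial ligand that is also in the arterial marker list below, went from 523 ± 106 to 93.8 ± 35.9 RPM (-2.59, adjusted p = 3.0e-06) whereas PM offspring had 562 ± 200 RPM without and 118 ± 67.7 RPM with OVA (-2.31, adjusted p = 0.0006). Heyl and Hey2, relatives of Hey1 that were named after their values were seen, went the same way. Heyl had 72.9 ± 16.3 RPM in Sham and 17.8 ± 4.12 in Sham-OVA (adjusted p = 1.2e-06), and 86.0 ± 13.9 in PM and 22.6 ± 15.7 in PM-OVA (-2.24, adjusted p = 0.00056). Hey2 was low, at 6.39 ± 1.10 and 1.44 ± 0.574 RPM (-1.86, adjusted p = 4.0e-06), and 6.45 ± 1.12 and 1.67 ± 0.747 RPM (-1.74, adjusted p = 0.000141). Hey1, Hey2 and Heyl were thus lower after OVA challenge in both comparisons on the RPM scale, the calls for Hey1 being the ones lost in PM offspring under median-of-ratios scaling. Relatives of Hes1, also named after their values were seen, had higher means after OVA challenge. Hes6 had 35.6 ± 5.23 RPM in Sham and 60.4 ± 13.3 in Sham-OVA, and 35.0 ± 4.09 in PM and 69.8 ± 17.7 in PM-OVA. Hes7 was low, at 0.766 ± 0.355 and 1.32 ± 0.905 RPM, and 0.642 ± 0.391 and 1.34 ± 0.829 RPM.

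**Figure D5:**
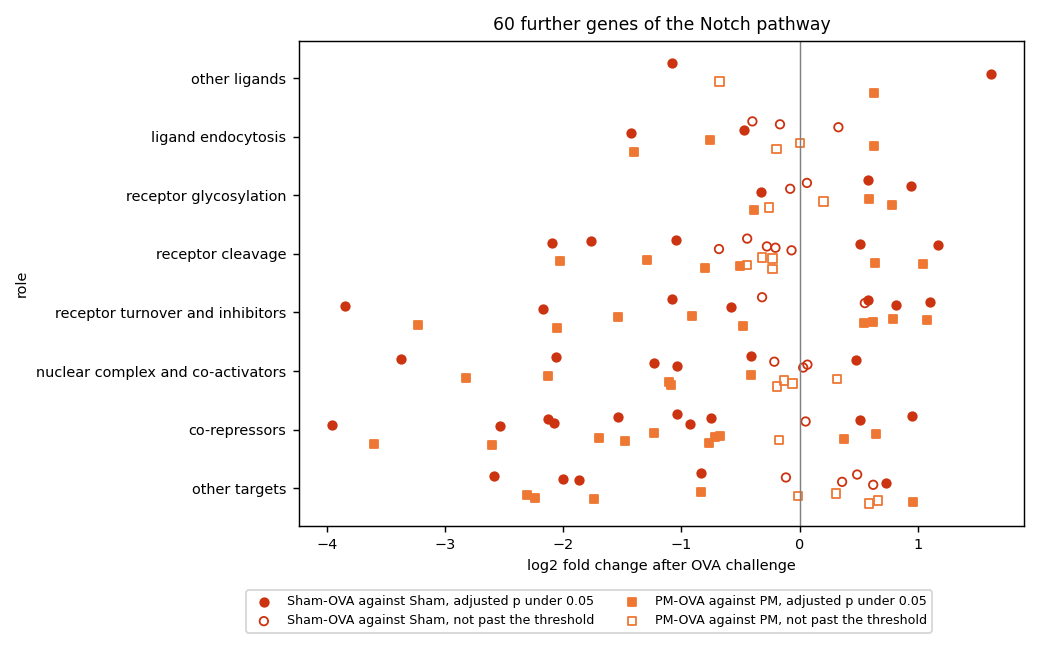
Log2 fold change after OVA challenge (horizontal axis) of 60 further pathway genes, by role (vertical axis), in Sham (circles) and PM offspring (squares). Filled points passed an adjusted p of 0.05 and open points did not. Hdac1, plotted among the co-repressors, passed the filter on low values only through the saline libraries. Of the other 10 co-repressors, 7 passed as lower and 2 as higher in each comparison. Of all genes 47.5% were lower in Sham and 45.2% in PM offspring, and 20.6% and 20.1% higher.

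Levels of cell type markers, none of them among the 10 genes, were read in the same libraries. Beside the counts below, 47.5% of all genes were lower in Sham and 45.2% in PM offspring, and 20.6% and 20.1% higher. Shares near these, such as 5 of 10 lower, do not set a list apart. The summed level of 6 arterial endothelial markers ranged from 804 to 1337 RPM in Sham and from 318 to 539 in Sham-OVA, and from 766 to 1309 in PM and from 391 to 713 in PM-OVA. Without Efnb2, the pathway target described above, the other 5 summed to 389.7 to 650.1 RPM in Sham and 287 to 420.4 in Sham-OVA, and to 449 to 599 in PM and 318 to 510.0 in PM-OVA, so that each pair of ranges overlapped. Of the 6 markers 4 of 6 were lower in Sham and 3 of 6 in PM offspring, and 0 were higher. For 10 pan-endothelial markers the sum was 3468 to 6596 RPM without and 3433 to 4420 with OVA in Sham offspring, 2421 to 6147 and 3702 to 4980 in PM offspring, with 5 of 10 lower in both comparisons and 1 and 2 of 10 higher. The 8 capillary markers summed to 1909 to 4211 RPM without and 1826 to 2478 with OVA in Sham offspring, and 1378 to 4328 and 2121 to 2661 in PM offspring, with 5 of 8 lower in both and 2 of 8 higher in both. Mural cell markers, smooth muscle genes included, went as a sum from 715 to 997 RPM in Sham to 923 to 1605 in Sham-OVA and from 761 to 1676 in PM to 834 to 1751 in PM-OVA, with 5 and 4 of the 9 lower and 3 of 9 higher in both comparisons. Leukocyte markers went as a sum from 518 to 1163 RPM in Sham to 1991 to 3070 in Sham-OVA and from 595 to 818 in PM to 1667 to 2504 in PM-OVA, with 6 of 9 higher in both comparisons. Of genes past the filter in the saline libraries too, 7 of 7 of the type 2 response and 4 of 4 of goblet cells were higher in both comparisons. Il4, Il5, Il13, Foxa3 and Agr2, which passed through the OVA libraries, and Clca1 were at 0 in at least 1 library, while of 8 multiciliated genes 1 was higher and 1 lower in Sham and 5 were higher in PM offspring. Airway secretory markers had 3 of 6 lower and 1 higher in Sham, and 2 and 1 in PM offspring. The part of these cell types in the levels of the Notch genes was not tested, and in bulk lung fewer cells of a type and less RNA per cell cannot be told apart.

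Within the 14 saline libraries, free of OVA challenge, the genes varied together only in part. Dll4 and Hey1 had the highest Pearson correlation among the 45 pairs (r = 0.84 over 14 libraries), followed by Notch4 and Jag2 (0.76) and by Notch2 and Notch3 (0.70). These values describe libraries that share depth and cell content and carry no test. The tested gene most like each member across those libraries was Tll1 for Notch1 (r = 0.90), Pabpc1 for Notch2 (0.95), Gucy1a1 for Notch3 (0.92) and Atg9b for Notch4 (0.91). For the ligands it was Zfp40 for Jag1 (0.95), Brd8dc for Jag2 (0.89), Mrgprf for Dll1 (0.83) and Arhgap29 for Dll4 (0.97). For the targets it was 1110013H19Rik for Hes1 (0.80) and Ufsp1 for Hey1 (0.90). The second gene for Notch3 was Gucy1b1 (0.90), the other subunit of the soluble guanylate cyclase that Gucy1a1 encodes.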

How the data were processed

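RNA-Seq libraries of lung from 23 offspring in 4 groups were analysed, grouped by the maternal exposure and challenge in their labels. According to the methods, single-end reads were trimmed (Trimmomatic), mapped by the authors to GRCm38 using Bowtie2, which does not split reads across introns, and quantified in SeqMonk. The values deposited by the authors are named after RPKM but are RPM: divided by what 1 read is worth in its library, 100% gave a whole number to within 0.05 reads, whatever the gene length, which recovered the reads. The authors' steps before the table were not repeated.

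Values were transformed to log2(RPM + 0.5), which understates the change of low genes. A gene was tested if 4 or more libraries reached 0.5 RPM, which left 16795 of 35322, using limma 3.58.1 (R 4.3.3), with a variance trend, 2 groups per fit and all 4 for the interaction, and Benjamini-Hochberg adjustment over all genes tested. Depth was 2298645 to 17393579 reads per library. The alternatives were other pseudocounts and filters, median-of-ratios scaling, quantile normalisation, a joint fit, array weights, a replicate block, leaving out libraries, edgeR 4.0.16 and DESeq2 1.42.0 on recovered reads, removal of the trend with exon length and GC content (known for 16536 genes tested), 1 depth of 2298645 reads, and stricter thresholds. Leaving out PM-OVA replicate 1 and Sham-OVA replicate 3 together was chosen after seeing the data, as were the counts over listed genes past the filter in both the saline and the OVA libraries. The fits were tested on simulated data.

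All 10 genes are named. Of the further pathway genes, the gene with the largest absolute log2 fold change of each role among those called in both OVA comparisons in 1 direction is named, with any gene called in a maternal comparison (there were 0 with the limma fits other than the alternatives), and for each of the 10 the most similar genes over the saline libraries. The genes and lists were chosen with earlier results of these data known. Exon length and coordinates are from GENCODE vM21, and promoters from RefSeq. Python 3.11.15 and matplotlib 3.10.9 made the figures.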

Additional observations from a re-analysis of the deposited data

Results flagged for a closer look

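Single libraries far from the rest of their group were sought among 40 sets of values, the 10 genes in the 4 groups, and 4 stood out by Dixon's ratio. Chance marks about 1 in 20 such sets. Notch1 was lowest in PM replicate 5, at 190.4 RPM, where the next library had 246 and the highest 281 RPM. Notch1 was also lowest in Sham-OVA replicate 3, the shallowest library, at 34.2 RPM, where the next had 101.9 and the highest 123 RPM. Jag1 was highest in Sham replicate 3, at 72.1 RPM, with the next at 56.6 RPM and the lowest at 46.0 RPM. It was highest again in PM replicate 4, at 73.0 RPM, with the next at 52.1 RPM and the lowest at 44.3 RPM.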

How the results depend on the processing

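The number of the 10 genes called in an OVA comparison fell to 0 in both Sham and PM offspring at an adjusted p under 0.000001 with limma. Of all 16795 genes, 758 and 48 passed there. DESeq2 gave 3 (Notch1, Notch2 and Notch4) and 2 (Notch1 and Notch2), beside 5778 and 3339 of all genes. With limma the number was 5 and 4 when a log2 change of more than 1 either way was asked beside the usual threshold. Of all genes 6960 and 6356 passed that rule. Leaving out 1 library gave 9 to 10 calls in Sham and 6 to 8 in PM offspring, beside 10893 to 12129 and 9576 to 12080 of all genes. The other alternatives gave 7 to 10 and 6 to 8, beside 10025 to 12808 and 7982 to 12064 of all genes, with 14737 to 23487 genes tested. The main fit called 11431 and 10968 of 16795. These calls are in either direction, and the only higher one among the 10 was Hes1 in Sham offspring. Counts of 0 for the maternal comparisons were kept by every alternative run, except that array weights called 1 gene, Notch2, in the interaction with the sign turned (-0.61). With another scaling, the median of all genes moved from -0.48 on the RPM scale to -0.17 in Sham and from -0.43 to -0.13 in PM offspring under median-of-ratios scaling, and to -0.05 and -0.02 under quantile normalisation, and the higher and lower calls over all genes from 3453 and 7978 to 5484 and 5812 in Sham and from 3379 and 7589 to 5288 and 5445 in PM offspring. Under median-of-ratios scaling 7 of the 10 genes were lower and 1, Hes1, was higher in Sham offspring, and 6 were lower in PM offspring. Of all 16795 genes, 6407 were then lower and 4903 higher in Sham, and 6003 and 4862 in PM offspring. With edgeR the call for Hey1 in Sham offspring was also lost (-0.46, adjusted p = 0.0563). At the threshold of the study the count over all genes was 758 with limma and 4861 with DESeq2 in Sham offspring, and 48 and 2851 in PM offspring. Samples with the same replicate number in the OVA comparisons deviated together with a correlation of -0.10 to 0.12, so the numbers were not taken to pair the libraries. The replicate numbers are those of the sample titles, and in the OVA groups most differ from the numbers in the library names. Pairing by library name was therefore not checked. With the replicate block 9 genes were called in Sham and 7 in PM offspring, Jag1 being lost (-0.53, adjusted p = 0.0981), and no other call among the 10 changed. Of all 16795 genes the fits with that block called 10025 in Sham and 7982 in PM offspring. PM-OVA and Sham-OVA libraries of the same number correlated with r of 0.60, 0.22, 0.62 and -0.31, and 0 genes were called there with or without the block. Precision is limited most in Sham-OVA replicate 3, where Dll1 had 12 reads. The cause of these differences was not tested.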
